A study of Homo sapiens with 8 samples.

Results

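Pairs of SMAD2 and TEAD4 regions that matched closely in DMSO-treated cells, and that met no TEAD4 region of inhibitor-treated cells, were examined in the established human embryonic stem cell line WA09. A pair was taken when a SMAD2 region and a TEAD4 region overlapped by at least 50% of the wider of the 2 regions and neither overlapped a TEAD4 region of SB431542-treated cells. The rule found 6788 pairs, each made of 1 SMAD2 region and 1 TEAD4 region. They came from 420548 SMAD2 regions (1.61%) and 289380 TEAD4 regions (2.35%) of DMSO cells. The pairs were chosen by overlap in the DMSO lists and by lack of overlap with the SB431542 list, so both measures are given as a description.

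The regions came from chromatin immunoprecipitation followed by sequencing, in which an antibody pulls down the DNA bound by a protein and enriched stretches are called as regions. TEAD4 was precipitated from cells kept for 4 h in 10 µM SB431542, and TEAD4 and SMAD2 from cells kept for 4 h in the solvent DMSO. All cells were of the same line, grown on Matrigel in conditioned medium. There was 1 library per group, so no value has a replicate error, no test was made, and the 95% intervals reflect counting error alone, with regions taken as independent of each other. The lists hold positions alone. Read depth is unknown, so that lack of a call says only that a region did not pass a threshold that is not stated.

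SMAD2 carries signals of activin, Nodal and TGF-β from the cell surface to DNA. The type I receptors phosphorylate it, and it then enters the nucleus with SMAD4 and acts with other DNA-binding proteins, such as FOXH1. SB431542 blocks the kinase of these receptors. TEAD4 binds DNA and recruits YAP and TAZ, the co-activators that the Hippo pathway keeps out of the nucleus. In human embryonic stem cells, activin and Nodal signalling maintains pluripotency and also drives mesendoderm formation.

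With ends read as in a BED file, close matching was the smaller part of the overlap of both factors. Of 22295 overlapping pairs in DMSO cells, 7228 (32.4%, 95% Wilson interval 31.8 to 33.0%) reached 50% of the wider region, and 440 of these (6.09%, 5.56 to 6.66%) were set aside because they met a TEAD4 region of SB431542 cells. Over whole lists, 3.39% of SMAD2 regions and 5.69% of TEAD4 regions of DMSO cells did so. In 369 of the 440 pairs both regions met it, in 51 only the TEAD4 region did, and in 20 only the SMAD2 region. Among the 15067 pairs of looser overlap, 1228 (8.15%, 7.72 to 8.60%) met such a region. These loose pairs spanned more DNA: from end to end, the DMSO-only closely matched pairs had a median of 249 bp and the DMSO-only loose pairs one of 299 bp. At an equal span of 249 bp, 117 of 1921 closely matched pairs (6.09%, 5.11 to 7.25%) and 182 of 3114 loose pairs (5.84%, 5.07 to 6.72%) met a TEAD4 region of SB431542 cells, and at 299 bp the shares were 7.29% and 7.35%. At 199 bp they were 5.30% (4.36 to 6.42%) and 4.07% (3.32 to 4.98%), with overlapping intervals. Pairs of other spans were not compared in this way.

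All starts in both DMSO lists were multiples of 50 bp and all ends lay 49 bp above such a multiple, while 1.97% of the starts in the SB431542 list were multiples of 50 bp. Overlaps of SMAD2 with TEAD4 in DMSO cells could thus take only stepped values. The pairs just inside the limit overlapped by 53.8% of the wider region. The first of them by row lay on chromosome 5 (build hg19), with SMAD2 at 124074551 to 124074899 and TEAD4 at 124074351 to 124074999. The next 2 lay on chromosome 3, with SMAD2 at 174104601 to 174104949, and on chromosome 20, with SMAD2 at 4358751 to 4359399. Just outside stood pairs at 49.9%, the first of them on chromosome 4 with SMAD2 at 148531601 to 148532199 and TEAD4 at 148531801 to 148532099. The other 2 lay on chromosome 14, with SMAD2 at 56957801 to 56958399, and on chromosome 22, with SMAD2 at 46673701 to 46673999.

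Many pairs stood just under the limit. In 3785 DMSO-only pairs the overlap fell 0.5 bp short of 50% of the wider region, 2587 of them with 99 bp of a region 199 bp wide. In 1212 of the 3785 pairs, a SMAD2 region of 99 bp met a TEAD4 region of 199 bp. If the ends of the lists are read as inclusive, each region is 1 bp wider and these pairs reach the limit. The number of matched pairs then becomes 10572. Close matching is then no longer the smaller part, since 20627 DMSO-only pairs overlapped with ends as listed. The number 6788 thus holds for ends read as in a BED file.

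**Figure D1:**
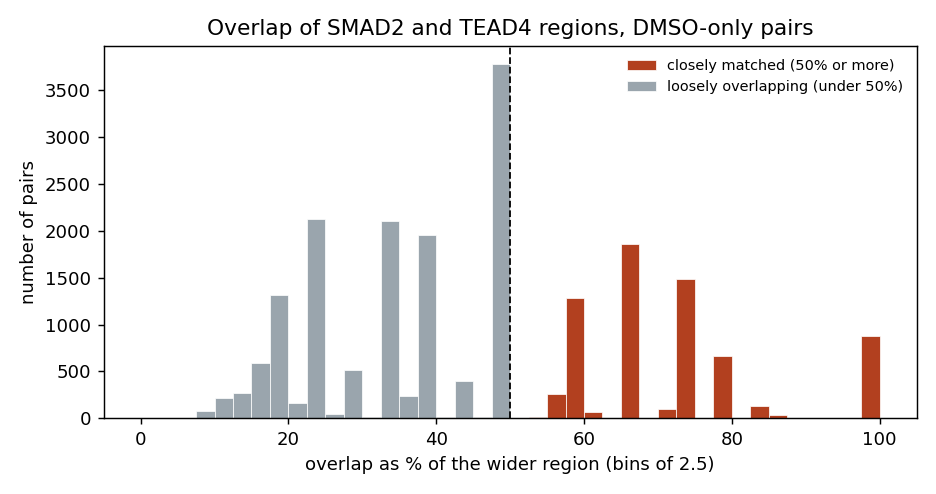
Overlap of each DMSO-only SMAD2 and TEAD4 pair as a percentage of the wider region (horizontal axis, bins of 2.5 percentage points) against the number of pairs (vertical axis). Bars at or over 50% are the 6788 closely matched pairs, and the tallest bar, just left of the dashed line, holds the 3785 pairs that fell 0.5 bp short.

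Start and end both lay within 50 bp, 1 step of the lists, of those of the partner in 4969 pairs (73.2%, 72.1 to 74.2%). They were identical in 880 pairs (13.0%, 12.2 to 13.8%). The starts were the same in 2639 pairs and the ends in 2647. The midpoints coincided in 1258 pairs, lay 25 bp apart in 2774 and 50 bp apart in 1863, and were more than 100 bp apart in 23. The largest distance was 175 bp. The SMAD2 midpoint lay at the lower coordinate in 2841 pairs and at the higher coordinate in 2689.

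Both regions of a pair had a median width of 199 bp. Matched SMAD2 regions were wider than the SMAD2 list (median 199 bp, against 149 bp), while matched TEAD4 regions had the median of the TEAD4 list (199 bp). The SMAD2 difference depended on the limit: with ends read as inclusive, which adds 1 bp to every region, the matched SMAD2 median was 150 bp. Closely matched pairs had the same width in 2096 cases (30.9%, 29.8 to 32.0%), against 1598 of the 13839 DMSO-only loose pairs (11.5%, 11.0 to 12.1%). TEAD4 was the wider partner in 3221 closely matched pairs (47.5%) and in 9624 loose pairs (69.5%). A limit set on the wider region favours partners of like width, so these shares follow in part from the rule. In 2839 pairs the SMAD2 region lay inside a wider TEAD4 region and in 1223 the TEAD4 region lay inside a wider SMAD2 region. In 1846 pairs (27.2%) neither region held the other, against 9118 loose pairs (65.9%).

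**Figure D2:**
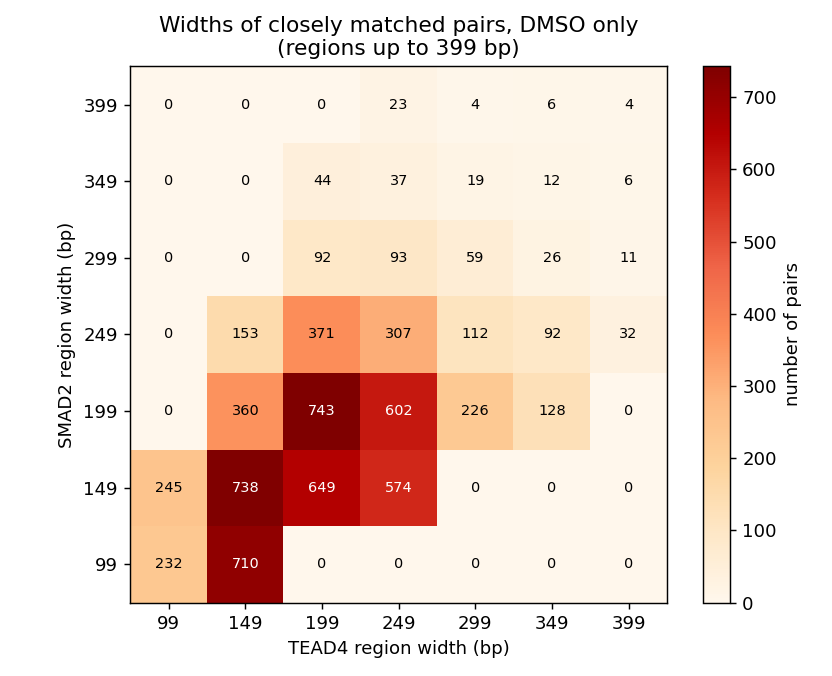
Number of closely matched DMSO-only pairs for each SMAD2 region width (vertical axis, bp) and TEAD4 region width (horizontal axis, bp), for regions up to 399 bp. The fullest cells are 199 bp with 199 bp (743 pairs) and 149 bp with 149 bp (738 pairs), and cells at 0 far from the diagonal are closed by the 50% limit.

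The commonest combination was 199 bp for both factors (743 pairs, 273 of them identical), followed by 149 bp for both (738 pairs, 286 identical) and by SMAD2 at 99 bp within TEAD4 at 149 bp (710 pairs). The limit on the wider region bears on these shares by width, since a SMAD2 region of 99 bp could match only a TEAD4 region of 99 or 149 bp. SMAD2 regions of 99 bp made up 13.9% of matched SMAD2 regions, against 37.2% of the SMAD2 list. Of all SMAD2 regions of 99 bp, 0.60% (0.57 to 0.64%) were matched, of those of 199 bp 2.27% (2.17 to 2.37%), of those of 249 bp 3.23% (3.05 to 3.42%) and of those of 299 bp 2.55% (2.29 to 2.86%). With ends read as inclusive, 1.61% (1.54 to 1.67%) of the narrowest SMAD2 regions were matched, and they made up 23.8% of the matched SMAD2 regions. For TEAD4, the matched share was 1.29% at 99 bp, 2.76% at 149 bp, 2.25% at 199 bp, 3.22% at 249 bp and 1.85% (1.69 to 2.04%) at 299 bp.

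Row order was the only ranking at hand. It was read as the authors' order, broadly strongest first, because widths fall down each list, and no header or label states it. Both lists also held long runs of matched regions whose row numbers fell as position along a chromosome rose. Within such runs the rows followed position, so small differences in row do not rank strength. How much of each list such runs take up was not measured. Rows, sums of rows and rho values below thus describe the order of the lists alone. Matched regions stood earlier in the SMAD2 list than in the TEAD4 list. Their median place was at 32.9% of the SMAD2 rows (interval 32.0 to 33.9%) and at 45.9% of the TEAD4 rows (44.6 to 47.0%). Loose DMSO-only pairs showed the other order, at 52.1% of the SMAD2 rows (51.4 to 53.0%) and 40.7% of the TEAD4 rows (39.9 to 41.5%). The limit divides pairs by width, and widths fall down each list, so these orders follow in part from the rule. All DMSO-only pairs with at least 1 bp of overlap stood at 44.8% of the SMAD2 rows and 42.5% of the TEAD4 rows. The first 10% of the SMAD2 rows held 1173 matched regions (17.3%) and the last 10% held 293. The first 10% of the TEAD4 rows held 688 matched regions (10.1%) and the last 10% held 423.

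Width moved with row order, and most of the early place in the SMAD2 list was shared by other regions of the same width. Ranked among regions of equal width, the matched regions had a median place at 47.6% for SMAD2 (46.5 to 48.6%) and 47.2% for TEAD4 (45.7 to 48.7%), where 50% is the middle. Loose pairs stood at 52.4% for SMAD2 (51.5 to 53.2%) and 51.5% for TEAD4 (50.6 to 52.3%). Among SMAD2 regions of 149 bp, for example, the median place was 45.6% for matched regions, 47.9% for those of loose pairs and 46.8% for all. Among TEAD4 regions of 149 bp it was 66.4% for matched regions, 72.1% for those of loose pairs and 69.8% for all. The 440 closely matched pairs that met a TEAD4 region of SB431542 cells had equal-width medians of 39.3% for TEAD4 (35.0 to 44.5%) and 47.6% for SMAD2.

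**Figure D3:**
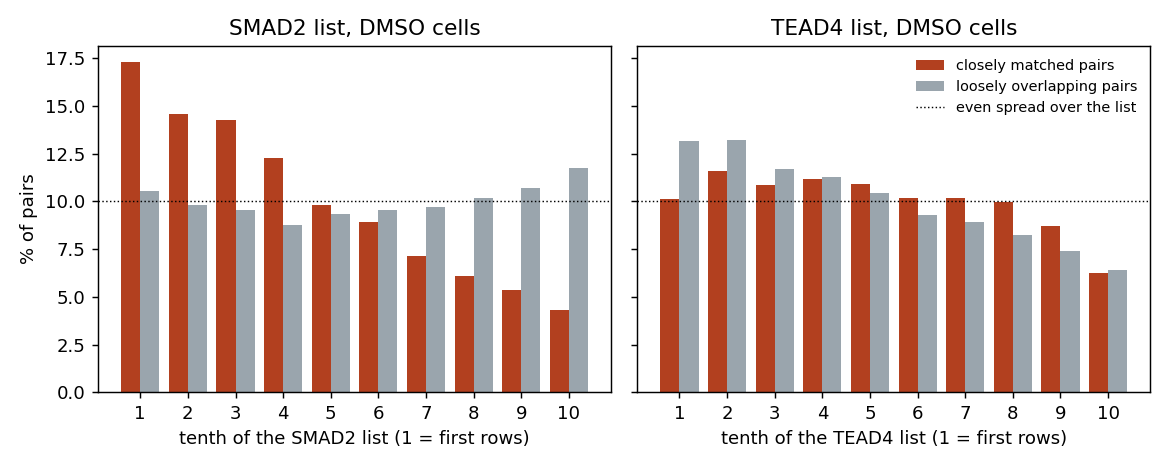
Share of pairs (vertical axis, %) in each successive 10% of the rows (horizontal axis, 1 = first rows) of the SMAD2 list on the left and the TEAD4 list on the right, for closely matched and loosely overlapping DMSO-only pairs. In the SMAD2 list the closely matched share goes down from 17.3% at the head to 4.32% at the end, whereas in the TEAD4 list it stays between 8.71 and 11.6% until the last rows, at 6.23%.

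Of the first 1000 SMAD2 rows, 28 were matched (2.80%, 1.94 to 4.02%), against 1.61% of the whole SMAD2 list. Of the first 1000 TEAD4 rows, 8 were matched (0.80%, 0.41 to 1.57%), against 2.35% of the whole TEAD4 list. Among the 440 pairs set aside because they met a TEAD4 region of SB431542 cells, 10 came from the first 1000 TEAD4 rows. The low TEAD4 share of 0.80% thus follows in part from the rule. A total of 1 pair stood in the first 1% of both lists and 188 pairs (2.77%, 2.41 to 3.19%) in the first 10% of both. Among loose pairs 152 (1.10%, 0.94 to 1.29%) stood in the first 10% of both. In the last 50% of both lists stood 1293 matched pairs (19.0%) and 2694 loose pairs (19.5%). The row numbers of both partners had a Spearman rho of 0.27 over the 6788 matched pairs, and of -0.06 over the 13839 loose pairs. Ranked within equal width, rho was 0.09 and 0.02. These are descriptions over regions that share 2 libraries and a list grid, and widths within matched pairs were themselves related (rho 0.58).

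The smallest sum of row numbers belonged to a chromosome 8 pair. Its SMAD2 region, 42704651 to 42704899, was row 282 and shared its end with the TEAD4 region, 42704501 to 42704899, which was row 1743. It was the single pair in the first 1% of both lists. The nearest TEAD4 region of SB431542 cells was 4253 bp away and the next matched pair 265901 bp away. The pair that followed, on chromosome 7, had identical SMAD2 and TEAD4 regions at 133442201 to 133442399 (SMAD2 row 2061, TEAD4 row 5700), with the nearest SB431542 region at 6861 bp. On chromosome 13, the SMAD2 region at 29196251 to 29196599 (row 2980) was centred within the TEAD4 region at 29196201 to 29196649 (row 6148).

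Partners could differ in row and fit among these leading pairs. On chromosome 1, SMAD2 row 6382 (78227251 to 78227499) and TEAD4 row 2853 (78227301 to 78227599) had midpoints 75 bp apart. On chromosome 4, SMAD2 at 22424301 to 22424549 (row 4250) shared its start with TEAD4 at 22424301 to 22424599 (row 5834), and the nearest SB431542 region was 541 bp away. The pair on chromosome 5 just inside the overlap limit had the highest TEAD4 place of the 10 leading pairs (row 536, with SMAD2 at row 9826). It lay 149 bp from a TEAD4 region of SB431542 cells, the shortest such distance among the 10.

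The remaining leading pairs lay on chromosomes 12, 20, 2 and 8. On chromosome 12, SMAD2 at 116819701 to 116820049 (row 6574) held TEAD4 at 116819751 to 116820049 (row 4107), and the next matched pair was 27301 bp away. On chromosome 20, SMAD2 at 25430051 to 25430349 (row 1947) was centred within TEAD4 at 25430001 to 25430399 (row 8908). This pair was the farthest of the 10 from a TEAD4 region of SB431542 cells, at 12044 bp. On chromosome 2 stood SMAD2 at 232317901 to 232318149 (row 5930) with TEAD4 at 232317951 to 232318249 (row 5158). On chromosome 8, SMAD2 at 97625851 to 97626099 (row 8360) shared its start with TEAD4 at 97625851 to 97626149 (row 2987).

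Pairs with identical boundaries stood lower in both lists than matched pairs as a whole. Over all 880 identical pairs the median place was 38.4% of the SMAD2 rows and 61.1% of the TEAD4 rows. Their median width was 149 bp, against 199 bp for both factors over all matched pairs. All regions of 149 bp had a later median place, at 46.8% of the SMAD2 rows and 69.8% of the TEAD4 rows. Places of identical pairs among regions of equal width were not computed. The widest identical pair, 399 bp on chromosome 9 at 125042051 to 125042449, had SMAD2 row 51129 and TEAD4 row 235142. The next, 349 bp on chromosome 3 at 194425101 to 194425449, had SMAD2 row 62529 and TEAD4 row 5096. Of the identical pairs of 299 bp, the first by row lay on chromosome 19 at 45020101 to 45020399 (SMAD2 row 1785, TEAD4 row 16357). It was followed by one on chromosome 12 at 42287801 to 42288099 (rows 11659 and 8251) and one on chromosome X at 137225201 to 137225499 (rows 56473 and 3785).

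Matched pairs were spread along the genome much as the lists were. They occupied 2537 of the 2909 windows of 1 Mb that held any SMAD2 or TEAD4 region of DMSO cells (87.2%), with a median of 2 pairs per occupied window and at most 9. The median distance to the next matched pair was 138 kb. Another matched pair lay within 50 kb of 1552 pairs (22.9%, 21.9 to 23.9%). A matched pair lay that near to 22.4% of loose pairs (21.7 to 23.1%), 22.3% of TEAD4 regions without SMAD2 (22.2 to 22.5%) and 21.6% of SMAD2 regions without TEAD4 (21.4 to 21.7%), where regions that met a TEAD4 region of SB431542 cells were left out of both. A loose pair lay within 50 kb of 39.6% of matched pairs (38.5 to 40.8%), 39.7% of TEAD4 regions without SMAD2 and 38.6% of SMAD2 regions without TEAD4. Another matched pair thus lay near a matched pair about as often as a matched pair lay near a region with a single factor. How near regions with a single factor lay to each other was not measured.

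The densest group held 5 pairs within 80.0 kb on chromosome 2, from 145932151 to 146012149. Its best-placed pair had SMAD2 row 45447 (146006501 to 146006749) and TEAD4 row 9585 (146006401 to 146006749), and 2 others lay 751 bp apart. The other 4 pairs stood further down both lists, with SMAD2 rows between 90211 and 385131 and TEAD4 rows between 56014 and 284429. Over the genome there were 16 separate groups of at least 4 pairs that started within 100 kb.

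Chromosome shares followed the lists with few departures. Chromosome 2 held the most pairs (618, or 9.10%, 8.44 to 9.81%), against 8.60% of SMAD2 and 8.54% of TEAD4 regions. Chromosome X held 270 pairs (3.98%, 3.54 to 4.47%), against 3.69% of SMAD2 regions and 5.48% of TEAD4 regions. On that chromosome 1.70% of TEAD4 regions (1.51 to 1.92%) were matched, the lowest share of the 24 chromosomes and below the 2.35% of the whole list. Of its SMAD2 regions 1.74% (1.55 to 1.96%) were matched. Of the DMSO-only overlapping pairs on chromosome X, 31.6% (28.6 to 34.8%) were closely matched, against 32.9% over all chromosomes. Chromosome 22 held 64 pairs (0.94%, 0.74 to 1.20%), against 1.24% of SMAD2 and 0.97% of TEAD4 regions. Chromosome 7 held 333 pairs (4.91%, 4.42 to 5.45%), against 5.34% of SMAD2 and 5.49% of TEAD4 regions. The interval left out the share of 1 of the lists on each of chromosomes X, 22, 7, 20 and Y. Chromosome 20 held 171 pairs (2.52%, 2.17 to 2.92%), against 2.32% of SMAD2 and 2.07% of TEAD4 regions. Chromosome Y held 3 pairs (0.044%, 0.015 to 0.13%), against 0.33% of SMAD2 and 0.038% of TEAD4 regions, and 0.22% of its 1373 SMAD2 regions (0.074 to 0.64%) were matched.

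**Figure D4:**
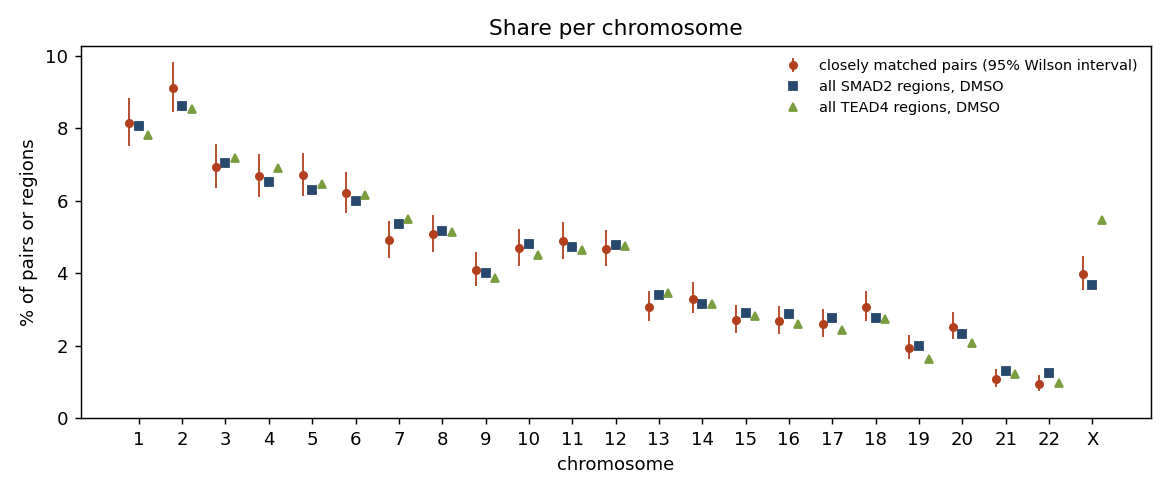
Share of closely matched DMSO-only pairs (circles, with 95% Wilson intervals), of all SMAD2 regions (squares) and of all TEAD4 regions (triangles) of DMSO cells on each chromosome (vertical axis, %; horizontal axis, chromosome, Y left out). On chromosome X the pairs (3.98%) sit near the SMAD2 list (3.69%) and below the TEAD4 list (5.48%).

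Regions beside long stretches without any call were not common among the pairs. Empty stretches were taken as 1 Mb or more without a call in the 3 lists, and 34 pairs lay within 500 kb of one (0.50%, 0.36 to 0.70%), against 0.652% of SMAD2 and 0.694% of TEAD4 regions of DMSO cells.

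Although no pair overlapped a TEAD4 region of SB431542 cells, such regions lay at about the same distances as from regions with a single factor. The median distance from a matched pair to the nearest one was 3.71 kb (3.56 to 3.84 kb), against 3.64 kb (3.55 to 3.73 kb) for loose pairs, 3.73 kb for SMAD2 regions without TEAD4 and 3.76 kb for TEAD4 regions without SMAD2. It lay within 500 bp for 640 matched pairs (9.43%, 8.76 to 10.1%) and 9.74% of loose pairs, and within 50 bp for 66 matched pairs (0.97%, 0.77 to 1.24%) and 1.11% of loose pairs. Within 5 kb it lay for 59.9% of matched pairs (58.7 to 61.0%), 61.5% of loose pairs (60.7 to 62.3%), 60.1% of SMAD2 regions without TEAD4 and 59.7% of TEAD4 regions without SMAD2. The SB431542 list was made in another way than the DMSO lists, so treatment and the making of the list cannot be told apart in these distances.

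**Figure D5:**
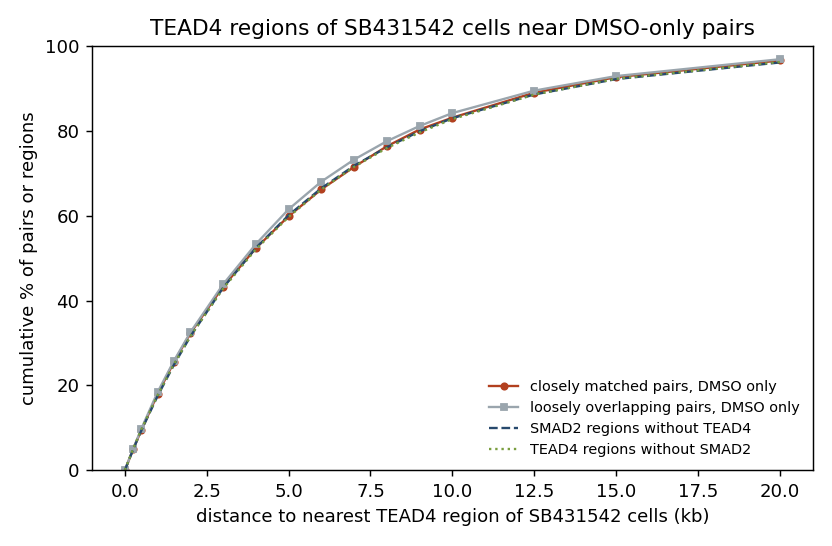
Cumulative share (vertical axis, %) of closely matched pairs, loosely overlapping pairs and regions with a single factor in DMSO cells that lay within a given distance (horizontal axis, kb) of a TEAD4 region of SB431542 cells, with overlapping regions left out. At 5 kb the 4 curves lie between 59.7 and 61.5%.

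The surroundings of the pairs held about as many other regions as those of loose pairs. Within 5 kb of a matched pair there were on average 1.63 ± 1.24 other SMAD2 regions (SD over 6788 pairs), 1.36 ± 1.26 other TEAD4 regions of DMSO cells and 0.94 ± 1.00 TEAD4 regions of SB431542 cells. Loose pairs had 1.62 ± 1.25, 1.37 ± 1.26 and 0.97 ± 1.01 (SD over 13839 pairs). SMAD2 regions without TEAD4 had 1.51 ± 1.21 other SMAD2 regions and 1.09 ± 1.15 TEAD4 regions of DMSO cells, and TEAD4 regions without SMAD2 had 1.60 ± 1.24 SMAD2 regions and 1.35 ± 1.24 other TEAD4 regions. These last 2 groups have no region of the other factor at the site itself by construction, and the part of this in their means was not tested.

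Other combinations of lists held closely matched regions as well. Of overlapping pairs of SMAD2 with TEAD4 in DMSO cells, the 32.4% given above reached 50% of the wider region. The share was 39.6% (38.8 to 40.4%) between SMAD2 in DMSO and TEAD4 in SB431542 cells, and 39.3% (38.5 to 40.0%) between TEAD4 in SB431542 and TEAD4 in DMSO cells. The SB431542 list is on no grid and has narrower regions (median 145 bp), and the part of this in the difference was not tested. The 32.4% holds for ends read as in a BED file, where 3785 DMSO-only pairs fell 0.5 bp short of the limit. With inclusive ends 10572 DMSO-only pairs reached it, against 6788, so the order of these shares can change. The other shares were not computed with inclusive ends.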

How the data were processed

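The authors deposited 3 region lists with 3 columns and no header: chromosome, start and end in bp. Antibody target and treatment in the name of each list matched 1 sample title. The other 5 of the 8 samples were not analysed here. Positions are on hg19, per the submitters' processing notes. Which caller, control library and threshold the authors used is not given in the sources used here. Coordinates are printed 1-based, so each printed start is 1 bp above the start in the list. Width is end minus start as listed, and the 50 bp steps also refer to the listed starts. Overlap needed at least 1 bp, and close matching 50% of the wider region. Intervals are 95% Wilson intervals for shares and order-statistic intervals for medians. The functions were tested on simulated lists. Named pairs are the 10 with the smallest sum of rows, the 5 widest identical ones, the densest group within 100 kb, and 3 on each side of the limit. Members and comparisons were chosen with earlier results of these data known. Genes, sequences and motifs need hg19 references and were not analysed here. Python 3.11.15, NumPy 2.4.6, pandas 2.3.3, SciPy 1.17.1 and matplotlib 3.10.9 were used.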

Additional observations from a re-analysis of the deposited data

How the results depend on the processing

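Removing the widest 1% of regions, chromosome Y and chrM, or regions beside empty stretches left the number of pairs within 1.5 times (6724, 6785 and 6754) and the other 8 results within their intervals. Values below follow the order pairs, identical share, median midpoint distance, SMAD2 and TEAD4 width, SMAD2 and TEAD4 row place, share with another pair within 50 kb and median distance to an SB431542 region, and leave out results within these limits. With 75% of the wider region required they were 1717, 51.3%, 0 bp, 25.1%, 42.6%, 6.52% and 3432 bp, widths unmoved. With 90% they were 880, 100%, 0 bp, 149 and 149 bp, 38.4%, 61.1% and 2.61%. With 25% they were 15862, 5.55%, 50 bp, 149 bp (SMAD2), 43.6%, 43.6% and 44.3%. With 1 bp of overlap they were 20627, 4.27%, 75 bp, 149 bp (SMAD2), 44.8%, 42.5% and 54.2%. With inclusive ends they were 10572, 8.32%, 50 bp, 150 and 200 bp, 39.1%, 47.0% and 32.5%. In the first 50% of rows of both DMSO lists they were 2844, 10.1%, 50 bp, 249 bp (TEAD4), 39.5%, 47.1%, 9.25% and 3492.5 bp. Here the row places 39.5% and 47.1% were counted within the kept rows alone, so they cannot be set beside places in the whole lists. With no SB431542 region within 500 bp, 6149 pairs were left, the share near another pair was 21.0% and the distance 4326 bp. Other limits, fewer rows and a wider margin change counts and spacing by construction. Row places among regions of equal width, chosen after seeing the data, were 47.6% for SMAD2 and 47.2% for TEAD4. No paired analysis was possible because every group held a single library, so none could be left out. Alternatives on motifs and gene starts were not run. Depth is unknown and limits every absence from a list.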
